A study of Homo sapiens with 12 samples.

Results

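The genes described here are 9 that encode histone acetyltransferases or their close coactivators: CREBBP and EP300, whose proteins CBP and p300 are the targets of the drugs used, and KAT2A, KAT2B, KAT5, NCOA1, NCOA2, NCOA3 and HAT1. They were chosen by name, though with earlier results of these data known. Each had 1 row under its current symbol among the 34687 rows of the table, KAT2B having a further row under an older name. The comparison asks whether the RNA of the targeted enzymes, or of other enzymes that acetylate histones, moved when cells received a drug against CBP or p300. HCT116 cells, a human colorectal carcinoma line, and PANC1 cells, a human pancreatic carcinoma line, received 0.05% DMSO, the solvent and control, or 10 uM of ICG-001 or C646, and RNA was taken after 12 or 96 h. ICG-001 binds CBP and blocks its contact with beta-catenin, and C646 competes with acetyl-CoA in the catalytic pocket of p300 and CBP, so both act on proteins and neither is aimed at the RNA measured here. Each of the 12 combinations of line, treatment and time had 1 column of values, the mean of 2 arrays by the labels and of 3 arrays for PANC1 ICG-001 12 h. The DMSO column of the same line and time was the control for both drugs, so ICG-001 and C646 share it. By the paper's methods, cells for 96 h were less dense at the start than those for 12 h and were passaged. A difference between 96 and 12 h, called over time below, therefore cannot be told apart from density and passage. No spread between arrays could be computed, so no test was run and every difference below is the size of a difference between 2 columns.

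Lysine acetyltransferases move the acetyl group of acetyl-CoA onto lysines of histone tails, which loosens contact with DNA and makes docking sites for bromodomain proteins at active promoters and enhancers. CBP and p300 are large paralogues that acetylate histone H3 at enhancers and are brought there by many DNA-binding factors, including beta-catenin with TCF proteins in WNT signalling, a pathway that is active in most colorectal cancers. KAT2A and KAT2B, also called GCN5 and PCAF, are paralogues that serve as the catalytic subunit of the SAGA and ATAC complexes, KAT5 (TIP60) is the catalytic subunit of the NuA4-like complex, HAT1 acetylates newly made histone H4 before it is placed on DNA, and the p160 proteins NCOA1, NCOA2 and NCOA3 bind nuclear receptors and bring in CBP and p300.

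Values were signal intensity on a linear scale, with background left in, and column medians, which lie among dim genes, were 139 to 140 in HCT116 and 132.7 to 133.5 in PANC1. A gene was taken as above the detection limit where its signal was over the peak of the column's log2 signals by 2.33 SD of the values below that peak (the 99th percentile of a normal distribution), which put the limit at 145 in HCT116 and at 136 to 140 in PANC1. Between 43.6% and 44.4% of rows passed it in HCT116 and between 43.0% and 46.3% in PANC1. Of the 9 genes, 8 were above the limit in all 12 columns and entered all 8 comparisons of a drug with DMSO. NCOA2 was above it only in PANC1 DMSO 12 h. A change was called where columns differed by 1.5-fold or more, and differences of 1.2-fold were counted as well. The log2 ratios of genes under the limit, which reflect noise of dim signals, had an SD of 0.06 to 0.07. This noise SD is a yardstick from dim genes with background left in and does not measure the spread of brighter genes. Among markers of the lines, EPCAM, CDH1, KRT8, KRT18 and KRT19 were above the limit in all 12 columns, while the intestinal markers CDX1 and VIL1 were above it in none. Of the intestinal list HCT116 passed the limit for CDX2 alone. PANC1 passed it for CDX2 in 6 of 6 columns, for LGALS4 in 5 of 6 and for CDH17 in 1 of 6, so this list did not mark HCT116. The mesenchymal marker VIM read 257 to 335 in HCT116 and 14637 to 18144 in PANC1. Of the other mesenchymal markers, CDH2 was above the limit in 0 of 6 HCT116 and 6 of 6 PANC1 columns. CAV1 was bright in both lines, at 2552 to 4035 in HCT116 and 4188 to 6200 in PANC1. The ductal markers did not set the lines apart: SOX9 was above the limit in all 12 columns, KRT7 in 4 of 6 HCT116 and 6 of 6 PANC1 columns, and CFTR in 1 of 6 in each line. The blood and endothelial markers PTPRC and PECAM1 were above it in no column, and COL1A1, a collagen of fibroblasts, was above it in all 12.

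**Figure D1:**
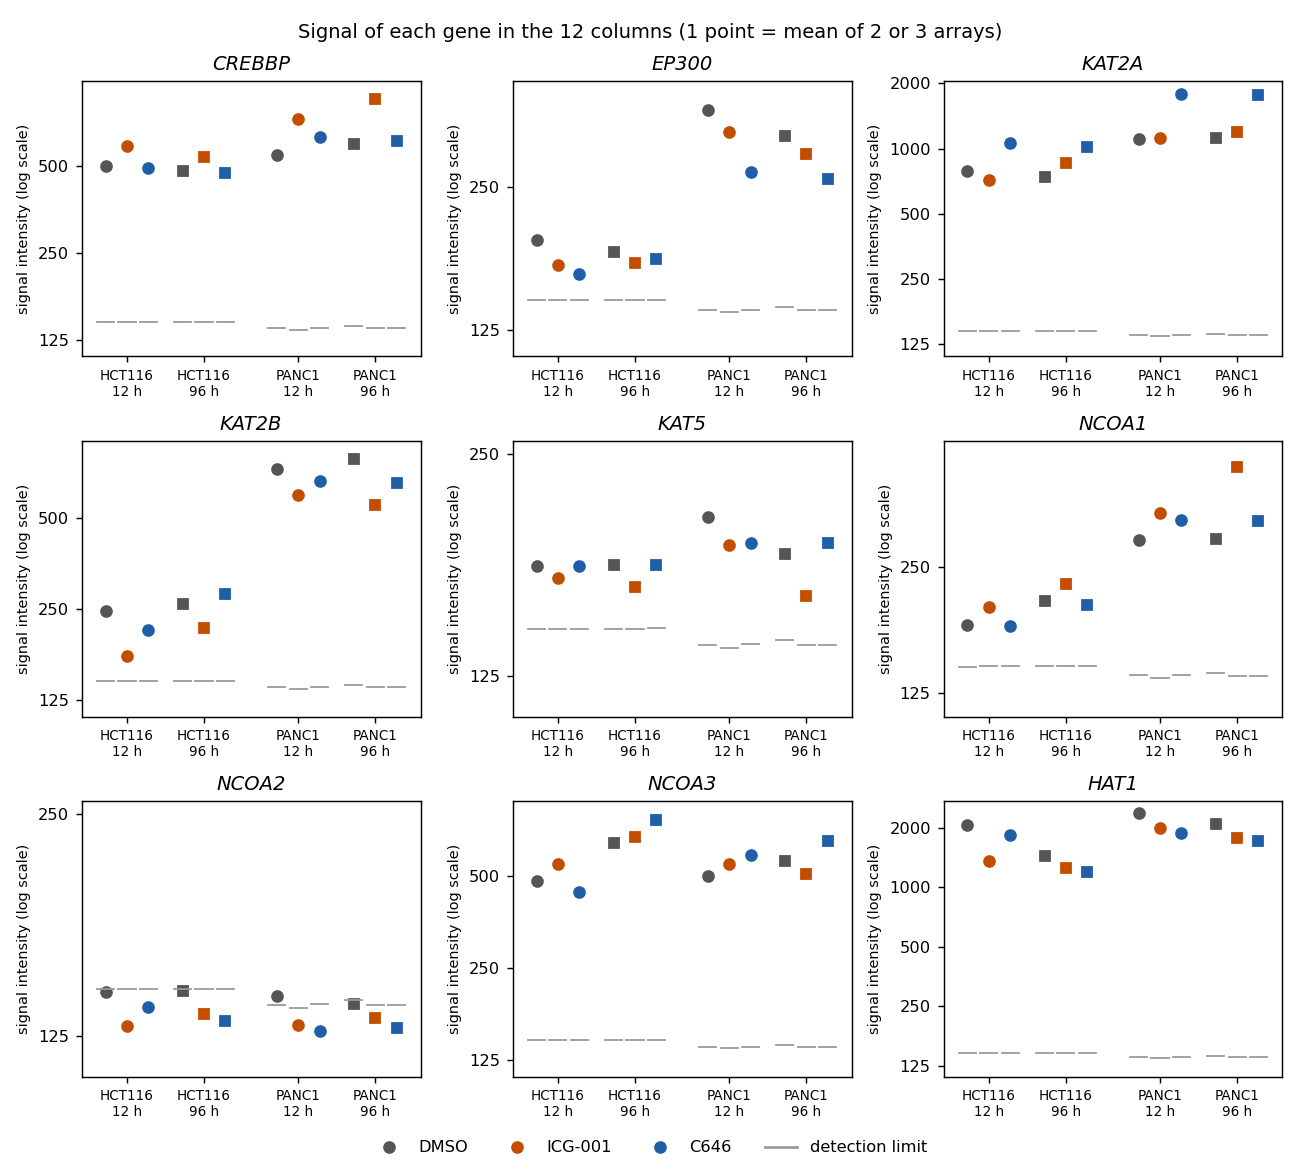
Signal intensity of each gene (log scale) in the 12 columns, with circles for 12 h and squares for 96 h, grey for DMSO, orange for ICG-001 and blue for C646, and a grey bar for the detection limit of the column. KAT2A was brightest with C646 at both times in both lines, and NCOA2 lay near the limit throughout.

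CREBBP, the gene of the protein that ICG-001 binds, was brighter with ICG-001 than with DMSO in all 4 comparisons, and by more in PANC1 than in HCT116. In PANC1 its signal was 548 with DMSO and 727 with ICG-001 at 12 h, and 599 with DMSO and 857 with ICG-001 at 96 h. With C646 it was 633 at 12 h and 610 at 96 h in PANC1. The ICG-001 columns of PANC1 were thus the brightest of the line at each time, with log2 ratios over DMSO of 0.41 at 12 h and 0.52 at 96 h, ratios of 1.33 and 1.43 that lay past 1.2 and short of 1.5. The RNA came from bulk cultures, where more or fewer cells of a state and more or less RNA per cell cannot be told apart. In HCT116 CREBBP read 502 and 481 with DMSO at 12 and 96 h, 587 and 538 with ICG-001, and 493 and 473 under C646. The ICG-001 values again lay above all 4 others of the line, with log2 ratios over DMSO of 0.23 and 0.16, and the C646 ratios were -0.03 and -0.02, within the noise SD of dim genes.

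EP300, the gene of p300, was dimmer with either drug than with DMSO in every comparison made. In PANC1 its signal was 362 with DMSO, 326 with ICG-001 and 269 under C646 at 12 h, and 319, 293 and 260 in the same order at 96 h. The order DMSO, ICG-001, C646 was thus the same at both times, and the log2 ratios of C646 over DMSO were -0.43 at 12 h and -0.30 at 96 h, both past 1.2-fold, while those of ICG-001 were -0.15 and -0.13. DMSO alone differed by -0.18 between 96 and 12 h in PANC1, a larger difference than that between ICG-001 and DMSO. In HCT116 EP300 was close to the limit, at 193 and 183 with DMSO at 12 and 96 h, 171 and 173 with ICG-001, and 164 and 176 under C646. These are log2 ratios of -0.17 and -0.08 for ICG-001 and -0.23 and -0.05 for C646, and background left in the signal shrinks the ratios of dim genes. At 96 h the ratio of ICG-001 was close to the noise SD of dim genes, 0.07, and that of C646 was within it. With normexp, a model that removes background, the C646 ratios of EP300 became -0.50 and -0.11 in HCT116, and in PANC1 -0.61 and -0.43.

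CREBBP and EP300 therefore differed in direction with ICG-001 in both lines. The log2 ratio of CREBBP minus that of EP300 for ICG-001 in HCT116 was 0.40 at 12 h and 0.24 at 96 h. In PANC1 it was 0.56 and 0.64. For C646 it was 0.21 and 0.03 in HCT116, and in PANC1 0.64 and 0.33. The DMSO columns of PANC1 also moved apart over time, by 0.31, and those of HCT116 by 0.02. The paralogues share most of their protein sequence, and the 250 bases before their start sites are shown here because their RNAs moved unlike each other. Both windows come from RefSeq on GRCh38.p14, CREBBP at chr16:3880714-3880963 on the minus strand and EP300 at chr22:41092342-41092591 on the plus strand, read 5′ to 3′, with matches to 4 motifs in capitals. The motifs, searched on both strands, were TGACG (the CRE half-site), GGGCGG (the GC box), CCAAT and TGATGNAA (the element bound by ATF4 with C/EBP proteins).
CREBBP: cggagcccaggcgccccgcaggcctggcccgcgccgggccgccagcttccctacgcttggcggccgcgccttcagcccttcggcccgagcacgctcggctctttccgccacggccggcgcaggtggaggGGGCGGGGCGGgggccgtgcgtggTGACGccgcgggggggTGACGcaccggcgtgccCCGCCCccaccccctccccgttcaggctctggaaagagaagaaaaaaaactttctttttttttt
EP300: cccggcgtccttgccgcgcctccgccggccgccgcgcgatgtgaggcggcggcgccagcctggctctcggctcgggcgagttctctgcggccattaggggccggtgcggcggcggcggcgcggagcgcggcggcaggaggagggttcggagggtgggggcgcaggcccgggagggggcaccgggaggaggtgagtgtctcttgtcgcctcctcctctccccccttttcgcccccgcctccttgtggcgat
The CREBBP window held 2 CRE half-sites and 3 GC boxes, of which 2 overlap by part of their letters, and the EP300 window held none of the 4 motifs. RefSeq gives CREBBP a further start downstream, whose window, not printed, held 4 GC boxes and no CRE half-site. Both windows were rich in G and C, at 72.4% and 76.8%. Over 35116 promoter windows of that length, 21.22% held a CRE half-site, 42.64% a GC box, 32.01% a CCAAT and 3.14% the ATF4 element, so a match is common and is only a description of these letters.

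KAT2A was the gene of the set with the highest ratio over DMSO, and that was with C646. In PANC1 its signal was 1107 and 1125 with DMSO at 12 and 96 h, 1117 and 1192 with ICG-001, and 1784 and 1768 under C646. The C646 columns stood apart from all 4 others of the line, with log2 ratios over DMSO of 0.69 at 12 h and 0.65 at 96 h, or 1.61-fold and 1.57-fold, and KAT2A was counted as changed at both times. Of all genes compared, 3.02% at 12 h and 2.39% at 96 h rose at least as far. In HCT116 KAT2A read 785 and 744 with DMSO, 713 and 863 with ICG-001, and 1060 and 1019 under C646. The C646 columns were again the brightest of the line, with ratios of 1.35 and 1.37 that did not reach 1.5, and 4.84% and 3.80% of genes were as far or farther above DMSO. ICG-001 did not share this pattern: its log2 ratios over DMSO were -0.14 and 0.21 in HCT116, and in PANC1 0.01 and 0.08. The DMSO columns differed over time by -0.08 in HCT116 and 0.02 in PANC1, and KAT2A stayed counted as changed in PANC1 with C646 when the mean of both DMSO columns was used as control, at 0.68 and 0.66.

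KAT2B, the paralogue of KAT2A, was dimmer with ICG-001 than with DMSO in all 4 comparisons. In HCT116 its signal was 245 with DMSO, 175 with ICG-001 and 213 under C646 at 12 h, and 260, 216 and 280 at 96 h. In PANC1 it was 728, 597 and 665 at 12 h and 784, 554 and 653 at 96 h in the same order. ICG-001 gave the lowest signal at each time in each line, with log2 ratios over DMSO of -0.49 and -0.26 in HCT116, and in PANC1 -0.29 and -0.50, all past 1.2-fold and none past 1.5-fold. For C646 the log2 ratios were -0.21 and 0.11 in HCT116, and in PANC1 -0.13 and -0.26, so its direction was not shared by all 4 comparisons. The ratios for ICG-001 at 96 h in HCT116 and for C646 at 96 h in PANC1 were only just past 1.2-fold. With normexp the HCT116 ratio for ICG-001 at 12 h became -0.92, past 1.5-fold, since its signal was near the limit. A further row of the table carried the older name of the gene, PCAF, and read 123 to 134 in HCT116, above the limit in 0 of 6 columns, and 133.3 to 145.2 in PANC1, above it in 4 of 6. In PANC1 that row was under the limit in both ICG-001 columns and above it in the other 4, and in HCT116 it gives no ratio, so the values of KAT2B above rest on the row under its current symbol.

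The paralogues KAT2A and KAT2B thus also moved apart. The log2 ratio of KAT2A minus that of KAT2B for C646 in HCT116 was 0.64 at 12 h and 0.34 at 96 h. In PANC1 it was 0.82 and 0.92. For ICG-001 it was 0.35 and 0.48 in HCT116, and in PANC1 0.30 and 0.58. Both windows of 250 bases before the start, shown for the same reason and taken from the same source, lie at chr17:42121368-42121617 on the minus strand for KAT2A and at chr3:20040196-20040445 on the plus strand for KAT2B, with the same 4 motifs in capitals.
KAT2A: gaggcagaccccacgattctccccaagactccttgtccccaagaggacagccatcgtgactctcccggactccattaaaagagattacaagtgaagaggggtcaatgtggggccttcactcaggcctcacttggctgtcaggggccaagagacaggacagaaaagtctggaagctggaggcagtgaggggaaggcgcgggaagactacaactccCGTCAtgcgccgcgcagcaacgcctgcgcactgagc
KAT2B: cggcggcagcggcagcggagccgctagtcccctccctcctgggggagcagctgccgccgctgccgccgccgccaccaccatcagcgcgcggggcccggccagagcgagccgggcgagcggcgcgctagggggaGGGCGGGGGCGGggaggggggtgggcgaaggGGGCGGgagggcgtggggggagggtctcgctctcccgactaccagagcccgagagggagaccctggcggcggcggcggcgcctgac
The KAT2A window held 1 CRE half-site, written as CGTCA because it lies on the other strand, and no GC box, while the KAT2B window held 3 GC boxes and no CRE half-site. The windows differed in base composition, with 58.8% G and C before KAT2A and 80.8% before KAT2B.

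HAT1, whose enzyme acts on new histone H4, was dimmer with either drug than with DMSO in all 8 comparisons with the same-time control. In HCT116 its signal was 2067 with DMSO, 1361 with ICG-001 and 1840 under C646 at 12 h, and 1437, 1251 and 1195 at 96 h. Here the DMSO column at 12 h was the brightest and the difference between the DMSO columns, -0.52 on the log2 scale, was nearly as large as that of ICG-001 over DMSO at 12 h, -0.60. The latter, 1.52-fold, was the only change of HAT1 counted at 1.5-fold, and 3.91% of genes fell at least as far. With the mean of both HCT116 DMSO columns as control it was -0.34 and was no longer counted, and the ratio of C646 at 12 h turned from -0.17 to 0.09. In PANC1 HAT1 was 2362 and 2088 with DMSO, 1978 and 1774 with ICG-001, and 1884 and 1701 under C646, each pair at 12 and 96 h. All 4 drug columns of PANC1 lay below both DMSO columns, with log2 ratios of -0.26 and -0.24 for ICG-001 and -0.33 and -0.30 for C646.

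With background left in, KAT5 passed 1.2-fold in no comparison. Its signal lay between 165 and 177 in the 6 HCT116 columns and between 160.5 and 205 in the 6 PANC1 columns. The log2 ratios over DMSO were -0.05 and -0.10 for ICG-001 and 0.00 and -0.00 for C646 in HCT116, and -0.12 and -0.19 for ICG-001 and -0.12 and 0.05 for C646 in PANC1. ICG-001 was thus on the lower side of DMSO in all 4 comparisons, but in PANC1 the DMSO columns themselves differed by -0.17 over time. With normexp the ratios of ICG-001 over DMSO in PANC1 passed 1.2-fold, at 1.21-fold at 12 h and 1.31-fold at 96 h. So did ICG-001 over C646 in PANC1 at 96 h, at 1.40-fold lower, and the DMSO columns of PANC1 over time, at 1.28-fold.

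Among the p160 genes, NCOA1 had the largest ratio of a drug over DMSO. In PANC1 its signal was 290 and 291 with DMSO, 335 and 432 with ICG-001, and 323 and 322 under C646, each pair at 12 and 96 h. ICG-001 at 96 h stood above the other 5 columns of the line, at 1.48-fold over DMSO, just short of the 1.5 that was counted, and with normexp it became 0.79 on the log2 scale and was counted. In HCT116 NCOA1 read 182 and 207 with DMSO, 200 and 227 with ICG-001, and 181 and 202 under C646, log2 ratios of 0.14 and 0.13 for ICG-001 and of -0.01 and -0.03 for C646. DMSO alone differed by 0.18 between 96 and 12 h in HCT116, more than ICG-001 did from DMSO. NCOA3, a coactivator that is amplified in some breast cancers, differed over time in HCT116: it was 481 with DMSO, 547 with ICG-001 and 444 under C646 at 12 h, and 643, 674 and 767 at 96 h. All 3 columns at 96 h lay above all 3 at 12 h, by a log2 ratio of 0.42 for DMSO, 0.30 for ICG-001 and 0.79 for C646, and ICG-001 over C646 at 12 h was also 0.30. In PANC1 NCOA3 was 503, 547 and 589 at 12 h and 562, 510 and 655 at 96 h in the same order, with C646 the brightest at each time, by log2 ratios of 0.23 and 0.22 over DMSO, under 1.2-fold. NCOA2 lay between 129 and 144 in HCT116 and between 127 and 141 in PANC1, and it was compared only where PANC1 DMSO 12 h was 1 of the columns, where it was not changed.

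At 1.5-fold each comparison with DMSO called at most 1 of these genes. With ICG-001, 1 of 8 was changed in HCT116 at 12 h (HAT1, lower), where 9.2% of the 16613 genes compared were changed, and 0 of 8 at 96 h, where 10.5% were. With C646, 0 of 8 were changed in HCT116 at both times, against 4.26% of genes at 12 h and 3.21% at 96 h. In PANC1, ICG-001 changed 0 of 9 at 12 h and 0 of 8 at 96 h, against 2.57% and 7.74% of genes. C646 changed KAT2A alone, 1 of 9 at 12 h and 1 of 8 at 96 h, against 6.92% and 4.15%. A share of 1 in 8 or 9 is close to these backgrounds, and the count over the set is therefore not a result about it.

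At 1.2-fold the counts in PANC1 with C646 rose to 3 of 9 at 12 h (KAT2A higher, EP300 and HAT1 lower) and 4 of 8 at 96 h (KAT2B lower as well), where 27.6% and 22.1% of genes passed. ICG-001 in PANC1 gave 2 of 9 at 12 h (CREBBP higher, KAT2B lower) and 3 of 8 at 96 h (NCOA1 higher as well), where 17.5% and 30.5% passed. In HCT116 the counts were 2 of 8 and 1 of 8 for ICG-001 at 12 and 96 h, against 33.2% and 34.9%, and 1 of 8 and 2 of 8 for C646, against 22.5% and 20.3%. The median absolute log2 ratio of the genes of the set that were compared was 0.24 in PANC1 with C646 at 96 h, where the median over all genes was 0.13, and 0.08 in HCT116 with C646 at 96 h, where that of all genes was 0.12. With ICG-001 in HCT116 at 12 h both were near each other, at 0.18 and 0.17.

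**Figure D2:**
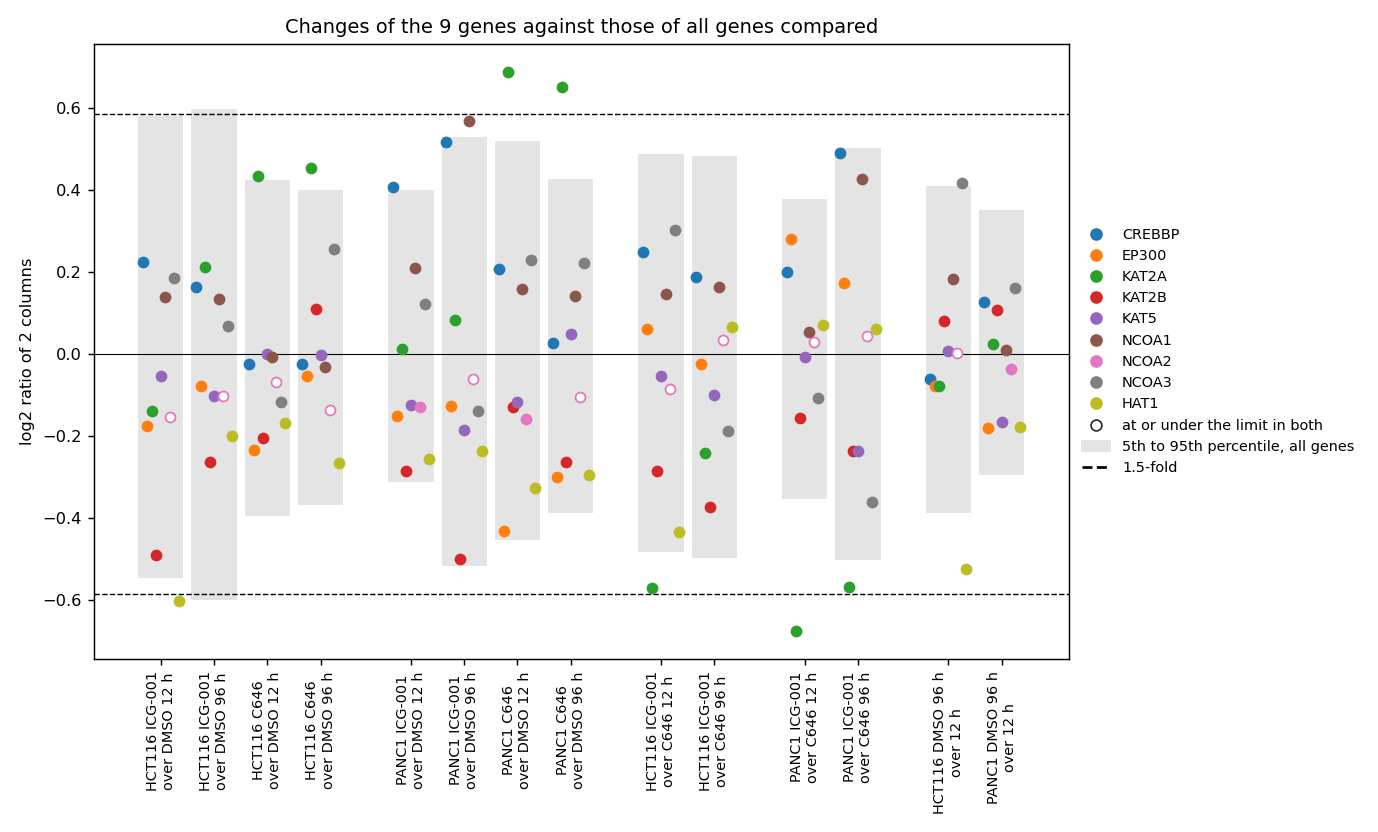
Log2 ratio between 2 columns (vertical axis) for each of the 9 genes in 14 comparisons (horizontal axis), with the 5th to 95th percentile of all genes compared as a grey bar, the 1.5-fold lines dashed, and open points for a gene under the limit in both columns. KAT2A lay above the bar with C646 in both lines, at 0.69 and 0.65 in PANC1, and most other points lay within it.

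The direction of the changes was counted over the 4 comparisons of each drug, which share no column with each other, while ICG-001 and C646 were compared with the same DMSO columns. With ICG-001, CREBBP and NCOA1 were higher than DMSO in all 4, 2 of the 8 genes above the limit throughout, where 19.7% of 13753 genes were. EP300, KAT2B, KAT5 and HAT1 were lower in all 4, 4 of 8, where 20.9% of genes were. With C646, KAT2A alone was higher in all 4, 1 of 8 against 21.2% of genes, and EP300 and HAT1 were lower in all 4, 2 of 8 against 24.5%. The direction of HAT1 with C646 in HCT116 at 12 h depended on the control column, as given above, and the ratios of EP300 in HCT116 at 96 h were close to or within the noise SD.

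The drugs were also compared with each other at the same dose and time, which needs no DMSO column. ICG-001 is a beta-turn peptide mimetic and C646 is a pyrazolone compound, so they are not analogues of each other. In these 4 comparisons KAT2A was dimmer with ICG-001 than with C646 each time, with log2 ratios in HCT116 of -0.57 at 12 h and -0.24 at 96 h, while PANC1 had -0.68 and -0.57. The value in PANC1 at 12 h was past 1.5-fold, 1 of 8 genes compared, where 2.59% of all genes were changed and 0.481% were as far or farther below. In the other 3 comparisons 0 of 8 were changed, against 6.41% of genes in HCT116 at 12 h, 6.71% in HCT116 at 96 h and 7.08% in PANC1 at 96 h. CREBBP was brighter with ICG-001 in all 4, by 0.25, 0.19, 0.20 and 0.49 in the same order. KAT2B was dimmer with ICG-001 in all 4, by -0.29, -0.37, -0.16 and -0.24. The sign for NCOA3 differed between comparisons, at 0.30, -0.19, -0.11 and -0.36.

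Without a drug, 0 of 8 genes in HCT116 and 0 of 9 in PANC1 differed by 1.5-fold between 96 and 12 h of DMSO, where 3.21% and 1.34% of all genes did. At 1.2-fold NCOA3 (0.42) and HAT1 (-0.52) differed in HCT116, where 3664 of 16191 genes did, and none did in PANC1, where 2535 of 16166 did. For NCOA3 the drug ratios over DMSO in HCT116, from -0.12 to 0.26, were all smaller than the difference between DMSO columns, and for HAT1 only that of ICG-001 at 12 h was larger.

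Levels in the lines themselves differed for several genes, although the columns of each line appear to have been normalized apart, so that the ratios between lines carry that step. At 1.5-fold 3 of 9 genes differed with DMSO at 12 h, where 4113 of 17142 genes compared did. At 96 h it was 3 of 8, where 4464 of 16924 did, so these counts are not a result about the set. With DMSO, KAT2B was 2.96-fold dimmer in HCT116 than in PANC1 at 12 h and 3.02-fold dimmer at 96 h. EP300 was 1.88-fold and 1.75-fold dimmer in HCT116. KAT2A was 1.41-fold and 1.51-fold dimmer and NCOA1 1.59-fold and 1.41-fold dimmer. With normexp these became larger at 12 and 96 h: 4.32-fold and 4.27-fold for KAT2B, and 2.79-fold and 2.63-fold for EP300. For KAT2A they were 1.47-fold and 1.59-fold, and for NCOA1 2.31-fold and 1.80-fold. With background left in, 1.98% and 1.91% of genes were as far below as KAT2B, and 6.26% and 8.53% as far as EP300. For KAT2A those shares were 14.4% and 13.1%, and for NCOA1 10.0% and 16.2%. CREBBP, KAT5 and NCOA3 differed less between lines, by log2 ratios of HCT116 over PANC1 of -0.13 and -0.32 for CREBBP, -0.22 and -0.05 for KAT5, and -0.06 and 0.19 for NCOA3. HAT1 was -0.19 and -0.54. Quantile normalization over all 12 columns kept the direction of each of these ratios.

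Patterns over the 12 columns, with each gene centred on its mean in each line, differed among the 9 genes. Over these 12 values, which share columns and control groups and are means of arrays, Pearson's r between CREBBP and NCOA1 was 0.79, with 0.95 in PANC1 and 0.26 in HCT116. CREBBP ran opposite to KAT2B (r = -0.80, with -0.91 in HCT116 and -0.88 in PANC1) and to KAT5 (r = -0.85). Between EP300 and KAT2A r was -0.78, and between the paralogues CREBBP and EP300 it was only -0.24. NCOA3 and HAT1, which differed by over 1.2-fold between the DMSO columns of HCT116, had r = -0.83. These are 6 of the 36 pairs and are descriptions with no test.

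Of the 9873 genes above the limit in all columns with a spread at least that of the gene or of 0.1, whichever was lower, those with the pattern most like CREBBP were ZNF181 (r = 0.95), ZNF319 (0.94) and HDDC3 (0.93). For EP300 they were AGPAT1 (0.97), AAMP (0.96) and LOC652071 (0.96), and for KAT2B STX12, TRAPPC5 and FBXO34 (0.96, 0.96 and 0.95). For KAT2A they were a row named only by a UniGene cluster (0.95), CCS (0.94), a copper chaperone, and SMA4 (0.93). For NCOA1 the first was CRTC3 (0.95), a coactivator of CREB that binds CBP, followed by HCG4 (0.95) and LOC729679 (0.94), and for NCOA3 they were JARID2 (0.97), LAMC1 (0.95) and TRAPPC6A (0.94). HAT1 was most like WDR77 (0.97), a subunit of the PRMT5 methyltransferase complex, DHX9 (0.97), an RNA helicase, and RANBP1 (0.96), a regulator of the RAN cycle. KAT5, compared with 10596 genes because its spread was smaller, was most like VTA1 (0.93), CDC42 (0.92) and KIAA0895 (0.92). For NCOA2, whose values lay near the limit, the first of 11213 genes compared were C4orf48 (0.95), ACTR3 (0.94) and LOC643778 (0.93).

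The genes that work with these enzymes were described from 9 lists holding 92 genes, of which 91 had a row and 14 of those carried an older name. Counted at 1.5-fold against DMSO, ICG-001 in HCT116 gave 1 gene higher and 6 lower of 83 compared at 12 h, and 1 higher and 6 lower of 81 at 96 h. C646 in HCT116 gave 5 higher and 4 lower of 82 at 12 h, and 1 higher and 2 lower of 80 at 96 h. In PANC1 ICG-001 gave 0 of 87 at 12 h, and 2 higher and 5 lower of 84 at 96 h. C646 in PANC1 gave 6 higher and 4 lower of 87 at 12 h, and 2 higher and 4 lower of 86 at 96 h. In HCT116 the shares changed were 8.43% and 8.64% for ICG-001 and 11.0% and 3.75% for C646, against the backgrounds of 9.2%, 10.5%, 4.26% and 3.21% given above. For PANC1 they were 0% and 8.33% for ICG-001 and 11.5% and 6.98% for C646, against 2.57%, 7.74%, 6.92% and 4.15%. The shares were above the background with C646 at 12 h in both lines and at 96 h in PANC1, and within 1 percentage point of it or below it elsewhere. The median log2 ratio over the list genes compared lay between -0.12 and -0.02 in the 8 comparisons.

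Among the partners of CBP and p300, all 8 medians were below 0, from -0.36 with ICG-001 in HCT116 at 12 h to -0.10 with C646 in HCT116 at 12 h. CITED2, a protein that competes with HIF-1 for CBP and p300, was 943 and 1270 with DMSO in HCT116, 607 and 674 with ICG-001, and 575 and 844 under C646, each pair at 12 and 96 h. All 4 drug columns lay below both DMSO columns, and CITED2 was lower at 1.5-fold in all 4, with log2 ratios of -0.64 and -0.91 for ICG-001 and -0.71 and -0.59 for C646. In PANC1 it was lower with each drug too, by -0.33 and -0.51 for ICG-001 and -0.34 and -0.30 for C646, under 1.5-fold. CITED4, of the same family, was 1334 and 1414 with DMSO in PANC1 and 640 and 894 with C646, log2 ratios of -1.06 and -0.66. With ICG-001 in PANC1 its ratios were 0.00 at 12 h and -0.70 at 96 h, the latter past 1.5-fold. CREB1, the factor that gave CBP its name, and CRTC3 ran the other way. CREB1 was 2396 and 2862 with DMSO in PANC1 and 4470 and 5017 with C646, log2 ratios of 0.90 and 0.81. In HCT116 it was higher at 12 h with both drugs, by 0.63 for ICG-001 and 0.93 for C646. CRTC3 passed 1.5-fold only in PANC1 with ICG-001 at 96 h (1.04). CRTC2 was lower at 1.5-fold at 12 h with both drugs in HCT116 and with C646 in PANC1 (-0.86). MYB was lower only with ICG-001 in HCT116 at 12 h (-1.32), where DMSO read 441 at 12 h and 231 at 96 h. RELA, the NF-kappaB subunit that p300 acetylates, was 510 and 371 with DMSO in PANC1 and 247 and 226 with C646, log2 ratios of -1.05 and -0.72. With ICG-001 in PANC1 its ratios were -0.17 and -0.05. In HCT116 RELA was lower with both drugs, under 1.5-fold, by -0.36 and -0.45 for ICG-001 and -0.43 and -0.56 for C646.

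**Figure D3:**
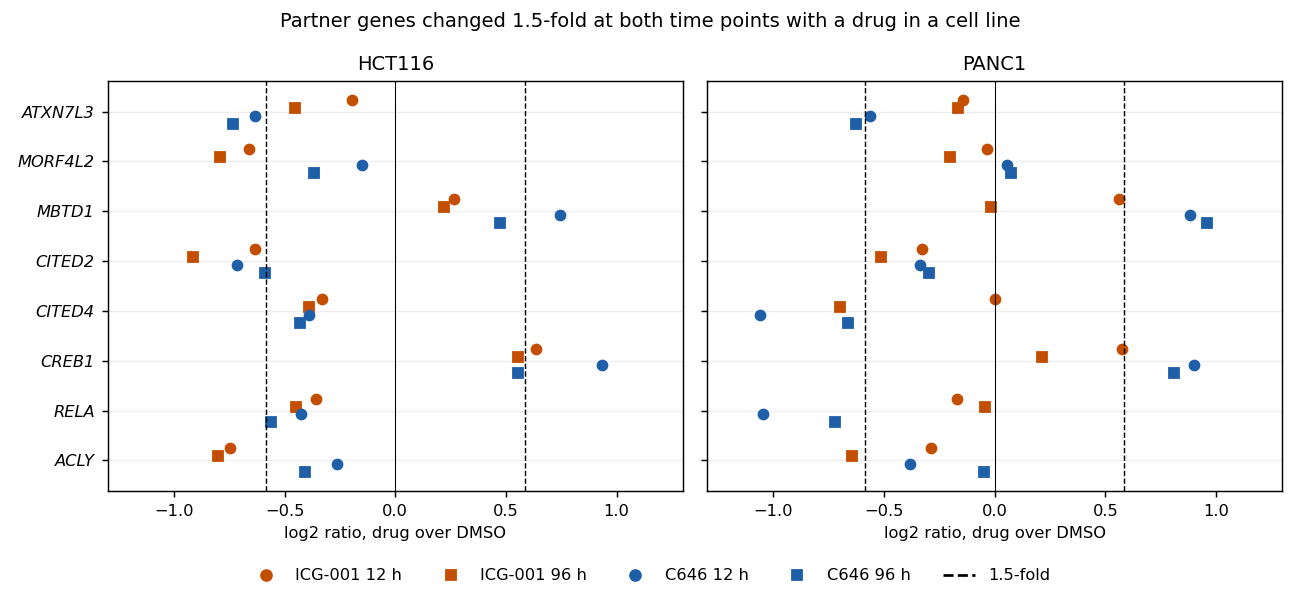
Log2 ratio of drug over DMSO (horizontal axis) for the 8 list genes changed at least 1.5-fold the same way at both times with a drug in a line, with circles for 12 h, squares for 96 h, orange for ICG-001 and blue for C646. CREB1 lay to the right in all 8 comparisons, from 0.22 to 0.93, and CITED2 to the left.

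Of the 24 genes with a row that encode the SAGA and ATAC complexes, built around KAT2A or KAT2B, at most 2 were changed in any comparison with DMSO. That was 2 of 22 with ICG-001 in HCT116 at 96 h, where 10.5% of all genes changed. With C646 at 12 h it was 2 of 23 in each line, where 4.26% of all genes changed in HCT116 and 6.92% in PANC1. Counts this small cannot be set apart from those shares. List medians lay between -0.13 and 0.06. ATXN7L3, which anchors the deubiquitinase of SAGA, was 564 and 655 with DMSO in HCT116 and 364 and 394 with C646, log2 ratios of -0.63 and -0.74. In PANC1 it was -0.56 and -0.62 with C646, so C646 was the lower at each time in both lines, while KAT2A was higher there. TRRAP, the large scaffold shared by SAGA and the TIP60 complex, was higher in PANC1 with C646 at 12 h (0.82) and TAF6L was higher at 12 h of C646 in both lines. The DMSO columns of PANC1 also rose over time, from 1012 to 1432 for TRRAP and from 451 to 568 for TAF6L. C646 at 12 h read 1790 and 689 there, and the part of the DMSO difference in these ratios was not tested.

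In the TIP60 complex, whose catalytic gene is KAT5, the subunit gene MORF4L2 was 3444 and 3977 with DMSO in HCT116 and 2177 and 2298 with ICG-001. Those are log2 ratios of -0.66 and -0.79, and in PANC1 the ratios for ICG-001 were -0.03 and -0.20. MBTD1, a reader of methylated histones in the complex, was 230 and 273 with DMSO in PANC1 and 423 and 531 with C646, log2 ratios of 0.88 and 0.96, and in HCT116 with C646 they were 0.74 and 0.47. The list medians of the complex lay between -0.22 and 0.04.

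Of the chaperones and partners of HAT1, RBBP7, the subunit that binds HAT1 to histone H4, was not changed at 1.5-fold in any comparison, with log2 ratios from -0.38 to 0.00. ASF1B, a chaperone of new histones H3 and H4, was higher at 96 h in HCT116 with both drugs, by 0.95 for ICG-001 and 0.69 for C646. The DMSO column of HCT116 read 758 at 12 h and 387 at 96 h for that gene, and ICG-001 read 771 and 747, so the columns at 96 h differed far more than those at 12 h. In PANC1 ASF1B was higher with C646 at 12 h (0.66), at 304 with DMSO and 480 with C646, while DMSO at 96 h read 397. CHAF1B, a subunit of the histone loading factor CAF-1, read 741 and 326 with DMSO and 491 and 463 with ICG-001 in HCT116. In HCT116 the DMSO columns of ASF1B and CHAF1B thus differed over time in the same direction as those of HAT1. The part of the DMSO differences in the drug ratios was not tested in either line.

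Of the other acetyltransferases, the MYST genes KAT6B, KAT7 and KAT8 were called changed in no comparison with DMSO, KAT6B being above the limit only in PANC1 columns. KAT6A, listed as MYST3, was lower in PANC1 with C646 at 12 h, at 525 with DMSO and 322 with C646, a log2 ratio of -0.71. Its DMSO column in PANC1 read 413 at 96 h, so the control columns differed over time as well. The other 3 drug ratios of KAT6A in PANC1 were -0.40, -0.54 and -0.51. In HCT116 the ratios of KAT6A lay between -0.11 and 0.18. NAT10, which acetylates cytidine in RNA, was higher with C646 at 12 h in both lines, by 0.87 in HCT116 and 1.03 in PANC1, and at 96 h by 0.53 and 0.41, under 1.5-fold. NAA50, listed as NAT13, an amino-terminal acetyltransferase, was lower in PANC1 at 96 h with ICG-001 (-1.15) and C646 (-0.64).

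Of the readers and the supply of acetyl groups, BRD2 and BRD3, bromodomain proteins that bind acetylated histones, changed at 1.5-fold in no comparison with DMSO. BRDT was above the limit in 0 of 12 columns. ACLY, which makes cytosolic and nuclear acetyl-CoA from citrate, was 2704 and 2770 with DMSO in HCT116 and 1611 and 1587 with ICG-001, log2 ratios of -0.75 and -0.80. C646 gave -0.26 and -0.41 there, and in PANC1 ICG-001 gave -0.29 at 12 h and -0.64 at 96 h, of which the latter passed 1.5-fold. ACSS2, which makes acetyl-CoA from acetate, passed it against DMSO only in PANC1 with ICG-001 at 96 h (-0.60), while the DMSO columns of HCT116 read 502 at 12 h and 853 at 96 h for it. Of the other coactivators of nuclear receptors, NRIP1 was lower in HCT116 with C646 at 12 h and NCOA7 was higher with ICG-001 at 96 h in PANC1, the only genes of that list that changed against DMSO.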

How the data were processed

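RNA of HCT116 and PANC1 cells was measured on Illumina HumanHT-12 expression arrays. The deposited values were signal intensity on a linear scale, 1 row per gene name, which the authors exported from GenomeStudio (named in the submitters' processing notes, version not given) after quantile normalization without background subtraction, and then averaged over replicate arrays. The number of arrays limits the precision. Groups came from the labels, and each had 1 column, so no test was run. Log2 ratios between columns were computed with Python 3.11.15, numpy 2.4.6 and pandas 2.3.3. Genes over the detection limit (2.33 SD over the peak) in either column were compared, and a gene was called changed at a fold of 1.5. The counting was tested on simulated data. Alternatives were folds of 1.2 and 2, a limit at 5 SD, no limit, normexp (limma 3.58.1, R 4.3.3), centring on the median, quantile normalization over all 12 columns, and the mean of both DMSO columns as control. Named genes were the 9, list genes changed at both times with a drug in a line, and the 3 genes most like each of the 9 in pattern. Other list genes were named after their values were seen. The 9 genes and the lists were chosen with earlier results of these data known. Older names were matched through the RefSeq gene table of assembly GRCh38.p14. The build behind the array annotation is not given in the sources used here, so no gene coordinates are given for probes, and the promoter windows carry their own build. The values of 1 list gene are not reported here.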

Additional observations from a re-analysis of the deposited data

How the results depend on the processing

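Each group was 1 mean of 2 or 3 arrays, so no alternative gives a spread, and 8 of the 9 genes were bright enough to give ratios. No paired analysis was possible because each group had 1 column. The counts of changed genes among the 9 did not differ by the detection limit at 5 SD, by leaving out the limit or by centring on the median. At 1.2-fold the counts for ICG-001 over DMSO were 2 at 12 h and 1 at 96 h in HCT116 (PANC1: 2 and 3). For C646 over DMSO they were 1 and 2 in HCT116 (PANC1: 3 and 4), with the shares of all genes given above. For ICG-001 over C646 they were 4 and 1 in HCT116, where 4791 of 16705 and 4686 of 16608 genes passed. In PANC1 they were 2 and 4, where 3219 of 17039 and 4875 of 16975 genes passed. For DMSO over time the count was 2 in HCT116, where 3664 of 16191 genes passed. At 2-fold every count was 0, where 1 gene had been counted in HCT116 with ICG-001 at 12 h, in PANC1 with C646 at 12 and 96 h, and in PANC1 between the drugs at 12 h. With normexp the counts became 2 in HCT116 with ICG-001 at 12 h (KAT2B besides HAT1), 2 in PANC1 with C646 at 12 h (EP300 besides KAT2A), 1 in PANC1 with ICG-001 at 96 h (NCOA1), and, between the drugs, 1 in HCT116 at 12 h (KAT2A), 1 in HCT116 at 96 h (KAT2B) and 1 in PANC1 at 96 h (KAT2A), where KAT2A already lay just short of 1.5-fold. Quantile normalization over all 12 columns gave 1 in HCT116 between the drugs at 12 h, where KAT2A lay just short of 1.5-fold. With the mean of both DMSO columns as control, the count in HCT116 with ICG-001 at 12 h was 0, because HAT1 was no longer counted. The share of all genes was not counted under normexp, quantile normalization over all 12 columns or the mean DMSO control.

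Of 126 log2 ratios of the 9 genes, normexp moved 49 by more than the noise SD of dim genes, by up to 0.43, and the mean DMSO control moved 28 of 72, by up to 0.26. No ratio counted as changed took the other sign under any alternative, while ratios of 0.18 or less did so in places: 4 with normexp, 7 with the mean DMSO control, among them HAT1 with C646 and NCOA3 with ICG-001 in HCT116 at 12 h.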
